A study of Gallus gallus with 8 samples.

Results

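The comparison described here set chicken neural crest cells grown with 10 µg/ml of DAN protein against crest cells grown with 1 µg/ml, to ask whether more DAN changed the transcriptome further. It uses 6 of the series' 8 libraries, chosen by their dose labels, with 3 libraries at 10 µg/ml and 3 at 1 µg/ml, and only these 6 entered the main test. Both doses came from fertilized leghorn chicken embryos at Hamburger and Hamilton stage 8, with no genetic change named. Neural tubes from rhombomeres 3 to 5 were plated on fibronectin and poly-D-lysine, DAN was present overnight, and the tubes and any ectoderm were then taken away so that the adherent migratory cells could be lysed. Each library came from 200 to 1000 such cells, as the labels give it. The 2 other libraries of the series are untreated cultures at 0 µg/ml. They are used here for their levels and in an alternative fit of all 8 libraries. Of 17108 genes in the count table, 13417 passed the count filter and were tested.

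Neural crest cells form at the dorsal edge of the neural tube, lose their epithelial contacts and migrate in streams to build the bones of the face, peripheral neurons, glia and pigment cells. DAN, the product of the gene NBL1, gives its name to a family of secreted proteins that bind bone morphogenetic proteins (BMPs) and keep them from their receptors. BMP signals act through SMAD transcription factors and take part in the induction of the crest and in its departure from the neural tube. The files list genes by Ensembl ID without symbols, and 0 of the IDs matched the reference table used here. BMP targets, crest specifiers and markers of neural tube, ectoderm or other cells were therefore not read, and the labelled cell type was not checked against its markers. In such bulk samples, a lower share of one kind of cell and less of a transcript per cell cannot be told apart.

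The libraries at 10 µg/ml held 44338765 to 118020458 counts and those at 1 µg/ml held 70690016 to 199084828. Between 15045 and 16239 genes had at least 1 count in a library. A floor of 3 counts corresponded to 0.0142 to 0.0691 normalised CPM, that is, the count relative to the library's total after scaling by trimmed mean of M-values (TMM). Such floors cover counting error only, since the reads carry no molecular identifiers.

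The leading pattern of variation mainly set replicate 2 at 10 µg/ml apart, and the 2 doses did not overlap along it. The libraries at 10 µg/ml did not stand together. On the first principal component of log2 CPM, which held 30.9% of the variance, the libraries at 10 µg/ml lay at 4.93, 65.5 and -4.52, and those at 1 µg/ml at -27.6, -15.6 and -22.7. The groups did not overlap, and the exact 2-sided permutation p was 0.10, the smallest that 3 libraries against 3 can give. Replicate 2 at 10 µg/ml, also the library with the fewest counts, stood far from its companions on this axis. On the second component (28.1%), replicates 1 and 3 at 10 µg/ml lay at 43.0 and 32.8 and replicate 2 at -17.0, against -7.17, -44.9 and -6.70 at 1 µg/ml. Across genes, log2 CPM correlated at a Pearson's r of 0.985 between replicates 1 and 3 at 10 µg/ml and 0.970 to 0.971 between each of them and replicate 2, against 0.978 to 0.983 within 1 µg/ml. Between doses it was 0.967 to 0.980. Genes are no replicates, and the r values only describe the libraries.

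**Figure D1:**
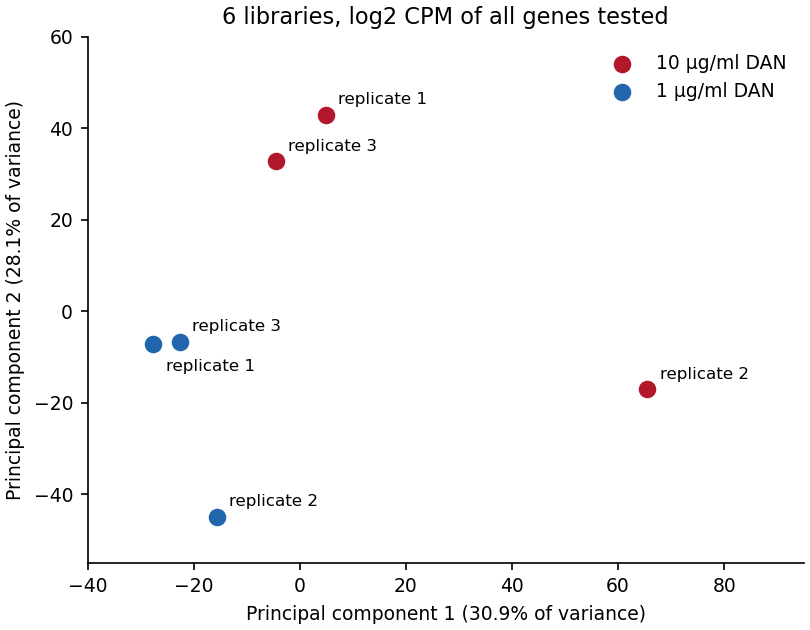
Principal components 1 and 2 (axes in component units, with their share of the variance) of log2 CPM over 13417 genes, with 1 point per library at 10 µg/ml (red) and 1 µg/ml (blue). Replicate 2 at 10 µg/ml sits at 65.5 on the first component, apart from the other 5 libraries, which lie between -27.6 and 4.93.

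No gene passed the test between the doses. Of 13417 genes, 0 (0%) had a Benjamini-Hochberg adjusted p under 0.05 in edgeR's quasi-likelihood test, and the smallest adjusted p was 0.107. An unadjusted p under 0.05 was found for 2829 genes (21.1%): 1390 (10.4%) were higher at 10 µg/ml and 1439 (10.7%) were lower. An unadjusted p under 0.01 was reached by 465 genes that were higher and 516 that were lower, and one under 0.001 by 49 and 63. The span of p from 0 to 0.05 held 2829 genes, against 397 from 0.95 to 1. Low p-values were thus frequent, but none was small enough for this number of genes. Genes share libraries, so these counts carry no test of their own. The 0 calls do not show that the doses were alike. The split by direction depended on the scaling, with 781 higher and 2159 lower when library size alone was used in place of TMM. At a looser adjusted p of 0.15, 641 genes were higher and 671 lower at 10 µg/ml.

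Whether any gene was called depended on the tool and on one library. DESeq2, run on the same libraries and genes, called 1123 of the 13417 genes (8.37%). It gave no adjusted p to 1850 of the 13417, so its adjustment covered fewer genes than edgeR's. Of its calls, 558 had a higher and 565 a lower level at 10 µg/ml, with median log2 fold changes of 0.58 and -0.67. All 1123 had an unadjusted p under 0.05 in edgeR. At 1090 of them the 3 libraries of one dose all lay above the 3 of the other. Over all genes tested, these shares were 21.1% and 27.3%. The calls, p-values and overlaps came from the same libraries, so they are no check on each other. Limma called 0 genes, whether on voom values, with or without quality weights, or on log2(RPKM + 1). Those weights were 0.81, 1.05 and 1.68 for replicates 1, 2 and 3 at 10 µg/ml. At 1 µg/ml they were 0.66, 1.17 and 0.90. The weights thus did not single out replicate 2 at 10 µg/ml as the most variable library. When replicate 2 at 10 µg/ml was left out, edgeR called 55 of the 13680 genes then tested (0.402%), 24 higher and 31 lower. Leaving out any of the other 5 libraries gave 0 calls.

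In replicate 2 at 10 µg/ml, the 55 genes lay nearer to the low dose than in its companions. For the 24 higher genes the median log2 difference from the mean of the libraries at 1 µg/ml was 1.05 in replicates 1 and 3 and 0.36 in replicate 2, where it ran from -0.08 to 1.17. For the 31 lower genes it was -1.08 in replicates 1 and 3 and -0.36 in replicate 2, with a range of -1.55 to 0.46. These genes were chosen on replicates 1 and 3, and both sets of values share the libraries at 1 µg/ml. Replicate 2 at 10 µg/ml was also the only one of the 6 libraries that lacked genes present in all the others: 19 genes had 3 counts or fewer there and at least 100 in each of the other 5 libraries, against 0 such genes for every other library. None of these 19 had an unadjusted p under 0.05 between the doses (0 genes, edgeR), and 0 were called. Over all genes tested, 21.1% had such a p. Near absence in 1 library widens the spread at 10 µg/ml, so small p-values were unlikely for genes chosen this way.

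Most differences between the doses were small. The middle 50% of genes had log2 fold changes between -0.29 and 0.24, the median was -0.01, and 5% lay below -0.85 and 5% above 0.70. Among the genes with an unadjusted p under 0.05, the median log2 fold change was 0.46 for those higher and -0.59 for those lower at 10 µg/ml. A fold of at least 2 was found for 296 genes that were higher and 471 that were lower, with median levels over the 6 libraries of 0.575 and 0.565 CPM, against 8.10 CPM for all genes tested. The larger folds thus came mostly from scarce transcripts.

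The 95% interval of the change excluded a 2-fold difference in either direction for 8513 genes (63.5% of the 13416 with an interval), and a 1.5-fold difference for 4443 (33.1%). These intervals are per gene, without adjustment, and cover the spread between libraries. Their median half-width was a factor of 1.39 over all genes, 2.61 in the least abundant decile of genes (median 0.206 CPM) and 1.18 in the most abundant decile (median 330.4 CPM). A 2-fold difference was excluded for 95.5% of genes in the most abundant decile and for 0.149% in the least abundant. The interval lay wholly beyond 2-fold for 10 genes that were higher and 17 that were lower at 10 µg/ml, which is no call after adjustment.

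**Figure D2:**
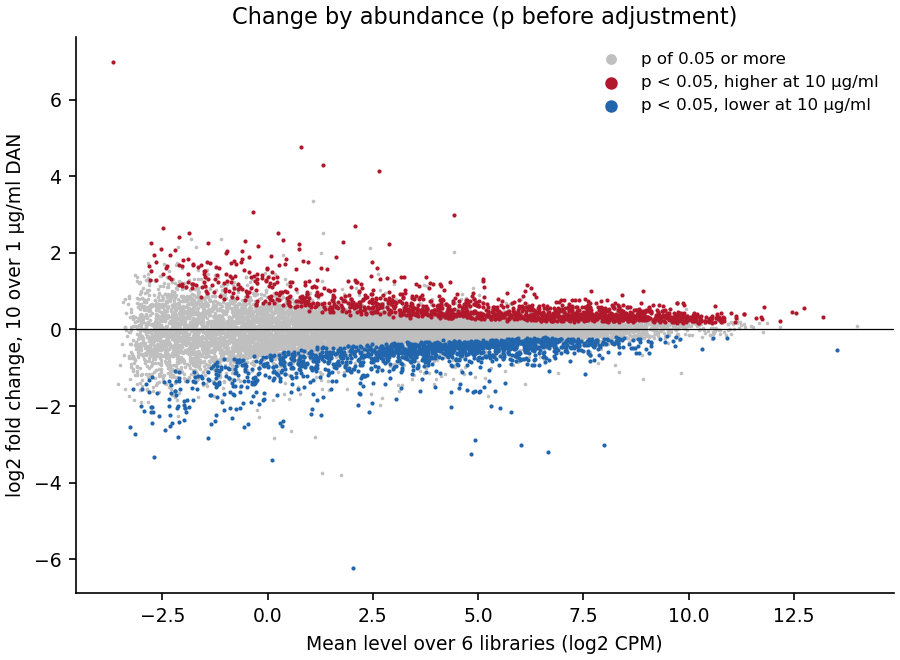
Log2 fold change (10 over 1 µg/ml, y axis) against mean level over the 6 libraries (log2 CPM, x axis) for each of 13417 genes, coloured where the edgeR p before adjustment was under 0.05. Coloured genes number 1390 above and 1439 below 0, and at the right end, among the most abundant genes, most coloured points lie above 0.

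Large changes at moderate levels often rested on a single dish. Among genes with a mean of at least 1 CPM, 15 were at least 4-fold higher and 23 at least 4-fold lower at 10 µg/ml. In 10 of the 15, one library at 10 µg/ml held over 80% of the summed CPM of its dose, and in 15 of the 23 one library at 1 µg/ml did. The 3 libraries of one dose all lay beyond the 3 of the other in 4 of the 15 and 6 of the 23. An unadjusted p under 0.05 (edgeR) was nonetheless reached by 11 of the 15 and 18 of the 23, against 21.1% of all genes tested. Low p-values thus included genes whose libraries overlapped. Of the 1390 higher and 1439 lower genes at such a p, 1191 and 1279 had libraries that did not overlap. Over all genes tested, 3659 (27.3%) had libraries that did not overlap between the doses, 1731 of them (12.9%) higher and 1928 (14.4%) lower at 10 µg/ml. No gene was switched on or off between the doses: 0 genes had 3 or fewer counts over one dose and at least 0.5 CPM in all 3 libraries of the other. Genes with counts at 10 µg/ml alone numbered 213 and reached at most 0.157 CPM. Those with counts at 1 µg/ml alone numbered 451 and reached at most 0.127 CPM. The deepest library (199084828 counts) was at 1 µg/ml and the shallowest (44338765 counts) at 10 µg/ml. The part of depth in these 2 numbers was not tested.

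The direction of the difference varied with abundance. In the most abundant decile (1342 genes), 450 genes had an unadjusted p under 0.05 and were higher at 10 µg/ml, and 100 were lower, a share of 41.0% at p under 0.05 against 21.1% over all genes. In the lower 5 deciles together, 367 were higher and 558 lower. That lower balance rested on one library, since it was 401 higher and 402 lower without replicate 1 at 1 µg/ml, and leaving out replicate 1 at 10 µg/ml gave 220 and 370. The median log2 fold change was -0.12 among the least abundant genes (decile 1) and 0.14 in decile 10. Among the 100 most abundant genes (1266 to 16292 CPM), 45 were higher and 4 lower at an unadjusted p under 0.05, with a median log2 fold change of 0.19 and a range of -0.54 to 0.60. Low unadjusted p-values were thus frequent among the most abundant transcripts, but no gene passed after adjustment and the differences were small. The largest folds among these 100 genes were 1.52 upwards and 1.45 downwards. The share at p under 0.05 was 7.01% in decile 1, where the interval of the change had a median half-width of a factor of 2.61. In decile 10, with its 41.0%, that factor was 1.18. The part of this narrower interval in the frequency of low p-values was not tested. Genes share libraries, so the counts describe the lists and carry no test of their own.

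The ranking by abundance need not use the compared libraries. With genes ranked by their level in the 2 untreated libraries, which did not enter the main fit, the most abundant decile held 422 genes that were higher and 132 that were lower at 10 µg/ml (unadjusted p under 0.05), and the middle one, decile 5, held 93 and 146. Of the 1342 genes in this most abundant decile, 1201 were also in the one ranked on the compared libraries. The 2 lists are thus largely the same genes. In the lowest decile of the untreated ranking the balance was the other way from the ranking above, with 80 higher and 35 lower, against 36 and 58. With library size alone in place of TMM scaling, all genes had a median log2 fold change of -0.11 (-0.01 with TMM). The most abundant decile ranked on the compared libraries then held 271 higher and 209 lower. That decile's majority of higher genes was found under 20 of 20 alternatives, which were not run with the untreated ranking. With single libraries left out it held 296 to 450 higher and 63 to 132 lower, the fewest without replicate 1 at 10 µg/ml.

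Libraries at 10 µg/ml gave a larger part of their counts to that decile. It took 75.6%, 74.9% and 75.0% of the counts in replicates 1, 2 and 3 at 10 µg/ml, against 72.5%, 73.2% and 73.8% in replicates 1, 2 and 3 at 1 µg/ml. The groups did not overlap, and the mean was 75.2% ± 0.373 at 10 µg/ml and 73.2% ± 0.663 at 1 µg/ml (SD, n = 3 each), a difference of 2.00 percentage points (exact 2-sided permutation p = 0.10, the smallest possible). With the untreated ranking the shares were 74.0% ± 0.158 at 10 µg/ml and 72.4% ± 0.539 at 1 µg/ml (SD, n = 3 each, exact permutation p = 0.10). Both shares came from the same 6 libraries as the counts of higher and lower genes. They are thus no further test of that balance. The untreated libraries themselves held 69.6% and 75.7% of their counts in the decile ranked on the 6 libraries, so they spanned both doses. Depths overlapped between the doses: replicates 1, 2 and 3 held 118020458, 44338765 and 75906045 counts at 10 µg/ml, against 199084828, 70690016 and 81849420 at 1 µg/ml. The part of depth in the difference was not tested.

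**Figure D3:**
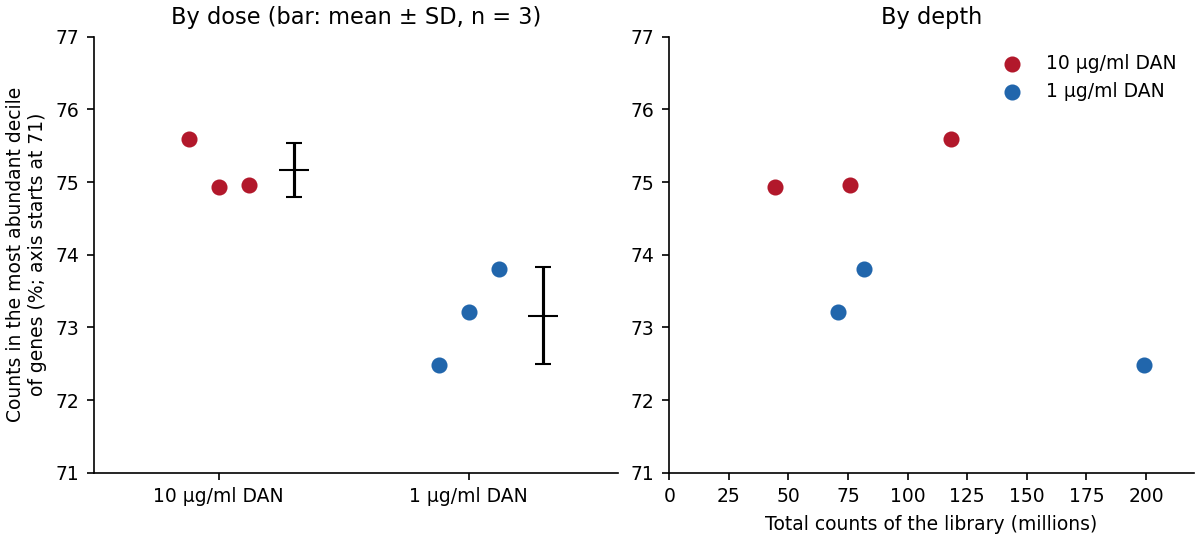
Share of each library's counts (percent, axis from 71) in the most abundant decile of genes, by dose on the left (points are libraries, bars the mean ± SD, n = 3) and against total counts on the right. The 3 libraries at 10 µg/ml lie between 74.9% and 75.6%, above the 3 at 1 µg/ml at 72.5% to 73.8%.

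Direction also varied with gene length. Among the shortest decile of genes (1316 genes, median 347 bases), 168 were higher and 100 lower at 10 µg/ml at an unadjusted p under 0.05. Together they were 20.4% of that decile, against 21.1% over all genes tested. In deciles 4 to 8 (6582 genes), 567 were higher and 841 lower. In the longest decile (1317 genes, median 6505 bases), 152 were higher and 86 lower, a share of 18.1%. Low p-values were thus no more frequent in the shortest or the longest decile than over all genes. Leaving out replicate 1 at 10 µg/ml gave 116 and 71 among the shortest genes, 297 and 520 in deciles 4 to 8, and 98 and 50 among the longest. Lengths came from the ratio of deposited counts to deposited RPKM values, for 13163 genes. Outside the most abundant decile of genes, the shortest decile (1181 genes) was nearly balanced, with 89 higher and 97 lower. The longest (1281 genes) kept 145 higher and 82 lower. Within the most abundant decile, the 900 genes shorter than the median length held 367 higher and 54 lower, and the 442 longer ones 83 and 46. For these longer genes the balance turned round without replicate 1 at 1 µg/ml (55 higher, 71 lower) and with library size alone (54 higher, 94 lower).

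The majority of higher genes among abundant, short genes did not rest on one library. With each library left out in turn, abundant genes shorter than the median had 254 to 357 higher and 30 to 64 lower. The longest genes outside the top decile had 95 to 173 higher and 47 to 107 lower, with more higher than lower in 6 of 6 such fits. That last majority turned round with library size alone, where 81 were higher and 126 lower. So did those of the longest decile as a whole (85 higher, 131 lower) and of the shortest decile (105 higher, 137 lower), which also had 68 higher and 73 lower with all 8 libraries in the fit.

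**Figure D4:**
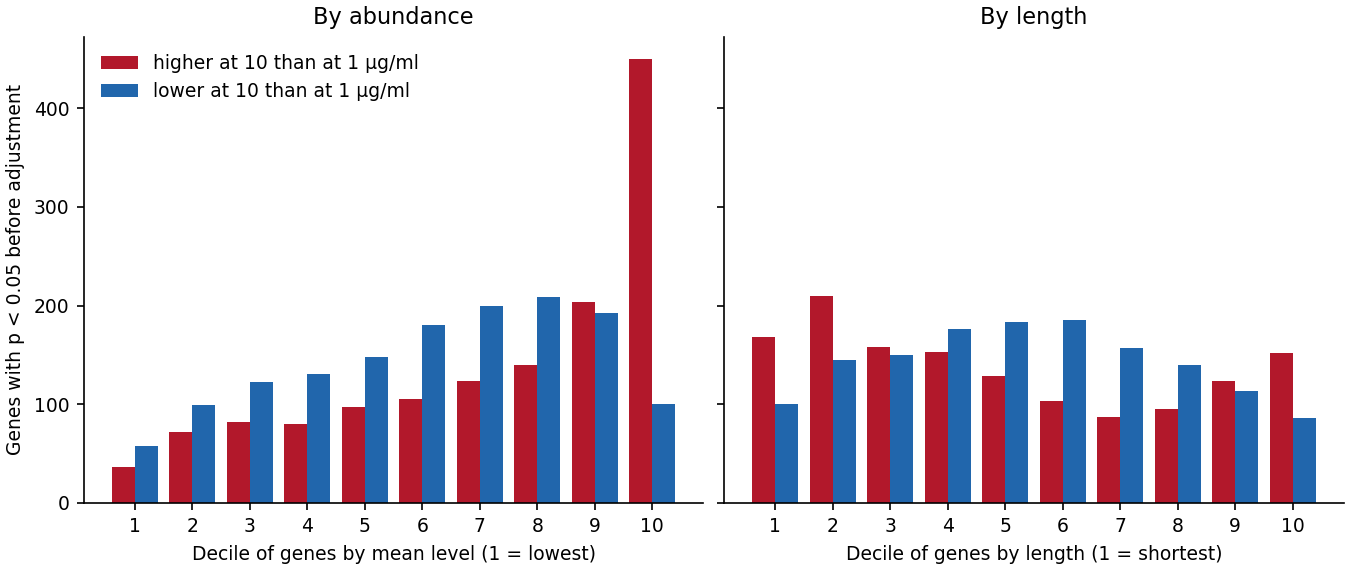
Number of genes with an edgeR p under 0.05 before adjustment (y axis) that were higher (red) or lower (blue) at 10 than at 1 µg/ml, by decile of mean level (left) and of gene length (right). The most abundant decile holds 450 higher and 100 lower genes, and by length the higher genes lead at both ends and the lower ones in the middle.

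Dishes of one dose differed about as much at 10 as at 1 µg/ml. The common dispersion corresponded to a coefficient of variation between libraries of 25.8% at 10 µg/ml and 27.1% at 1 µg/ml. Per gene, the SD of log2 CPM had a median of 0.22 at 10 µg/ml and 0.21 at 1 µg/ml, and it was larger at 10 µg/ml for 6747 of 13417 genes (50.3%). With replicate 2 left out the coefficient at 10 µg/ml was 20.7%; leaving out replicate 1 gave 27.3% and replicate 3 gave 29.2%. At 1 µg/ml it stayed within 26.1% to 27.4% whichever library was left out. At 10 µg/ml, replicate 2 was the library farthest from its companions at 39.6% of genes, replicate 1 at 32.8% and replicate 3 at 27.6%, against 30.9% to 35.1% for the libraries at 1 µg/ml.

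The genes with the smallest p in each direction are given by ID, among those with at least 1 CPM on average and no overlap between the doses. They were chosen by this very comparison, so their lack of overlap is a description. All have the smallest adjusted p of 0.107, which the adjustment gave to 192 genes alike. Before adjustment their edgeR p ran from 8.8e-06 (ENSGALG00000018386) to 7.83e-05 (ENSGALG00000026397). The files do not pair the IDs with names, so their roles are not given. ENSGALG00000018386 had 300.2, 246 and 272 CPM in replicates 1, 2 and 3 at 10 µg/ml, against 129, 143 and 137 CPM at 1 µg/ml. Every library at 10 µg/ml was well above every one at 1 µg/ml, and the replicates of each dose lay close together. The log2 fold change was 1.00 ± 0.10 (SE), or 2.00-fold, and did not pass (adjusted p = 0.107, edgeR). In the authors' deposited RPKM the mean was 282 ± 29.4 at 10 µg/ml and 141 ± 7.47 at 1 µg/ml (SD, n = 3 each), and the untreated libraries had 255 and 438 RPKM. The low dose thus lay below both the high dose and the untreated cells for this gene.

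ENSGALG00000010402 had 62.5, 44.7 and 42.3 CPM at 10 µg/ml, against 19.9, 21.5 and 18.5 CPM at 1 µg/ml. The libraries at 10 µg/ml spread more widely than those at 1 µg/ml but none reached down to them. The log2 fold change was 1.32 ± 0.17 (SE), or 2.50-fold (adjusted p = 0.107, edgeR). Its deposited level was 6.44 and 7.36 RPKM in untreated cells, 23.5 ± 1.74 RPKM (SD, n = 3) at 1 µg/ml and 58.8 ± 13.3 RPKM (SD, n = 3) at 10 µg/ml. The 3 groups followed the dose without overlap.

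ENSGALG00000004639 had 131, 151 and 155 CPM at 10 µg/ml, against 255, 234 and 276 CPM at 1 µg/ml. All libraries at 10 µg/ml were lower, and the replicates of each dose lay close together. The log2 fold change was -0.81 ± 0.10 (SE), 1.75-fold lower at 10 µg/ml (adjusted p = 0.107, edgeR). Deposited values were 106 ± 8.90 RPKM at 10 µg/ml and 186 ± 15.5 RPKM at 1 µg/ml (SD, n = 3 each), with 292 and 198 RPKM in untreated cells. The lower of the untreated libraries was within the range of the low dose.

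ENSGALG00000026397, a scarce transcript, had 0.963, 1.34 and 1.07 CPM (107, 58 and 80 counts) at 10 µg/ml, against 3.20, 4.54 and 3.73 CPM (679, 333 and 306 counts) at 1 µg/ml. The highest library at 10 µg/ml was below the lowest at 1 µg/ml. The log2 fold change was -1.77 ± 0.24 (SE), 3.42-fold lower at 10 µg/ml (adjusted p = 0.107, edgeR). Deposited values were 1.49 ± 0.246 RPKM at 10 µg/ml and 5.08 ± 0.893 RPKM at 1 µg/ml (SD, n = 3 each). The untreated libraries, at 5.26 and 7.46 RPKM, were within or above the range of 4.25 to 6.03 RPKM at the low dose.

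All of these genes were called by DESeq2, with adjusted p-values of 4.58e-11 for ENSGALG00000018386, 9.63e-10 for ENSGALG00000010402, 2.39e-06 for ENSGALG00000004639 and 2.3e-07 for ENSGALG00000026397. Without replicate 2 at 10 µg/ml, edgeR called 3 of them: ENSGALG00000018386 (adjusted p = 0.0413), ENSGALG00000010402 and ENSGALG00000026397 (both adjusted p = 0.0480). DESeq2 called 8.37% of the 13417 genes tested. EdgeR without replicate 2 at 10 µg/ml called 0.402% of the 13680 genes tested in that fit. The named genes were chosen by their small edgeR p in these same libraries, so their calls and directions in other fits are descriptions. Over 20 alternatives the adjusted p of each gene ran up to 0.324. Their directions were the same in every alternative: log2 fold changes ran from 0.90 to 1.07 for ENSGALG00000018386, 1.12 to 1.43 for ENSGALG00000010402, -0.90 to -0.74 for ENSGALG00000004639 and -1.91 to -1.28 for ENSGALG00000026397.

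**Figure D5:**
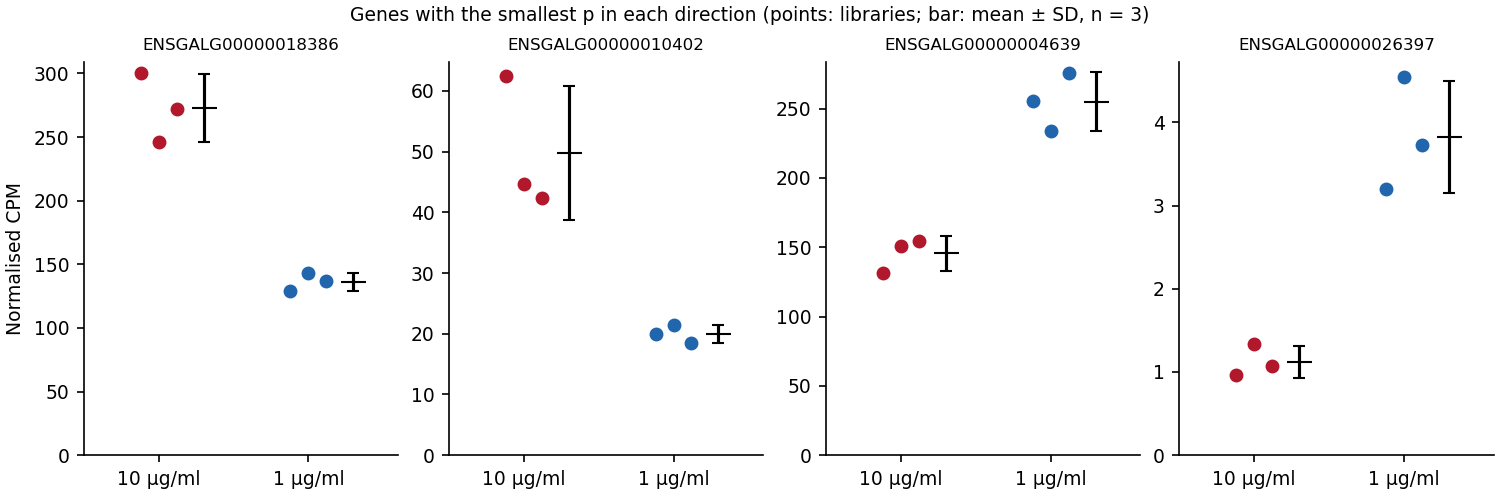
Normalised CPM of 4 genes in each library (points) at 10 µg/ml (red) and 1 µg/ml (blue), with the mean ± SD (bars, n = 3) beside them. ENSGALG00000018386 and ENSGALG00000010402 are higher and ENSGALG00000004639 and ENSGALG00000026397 lower in all 3 libraries at 10 µg/ml.

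The levels in untreated cells can be set beside those at both doses. The genes higher at 10 µg/ml (unadjusted p under 0.05) had a median level of 41.1 CPM in untreated cells, 43.4 CPM at 1 µg/ml and 58.1 CPM at 10 µg/ml. Those lower had 20.6 CPM in untreated cells, 18.2 CPM at 1 µg/ml and 12.04 CPM at 10 µg/ml. The corresponding medians of all genes tested were 8.63, 8.30 and 7.96 CPM. The lists were chosen on the difference between 10 and 1 µg/ml, and differences from untreated cells share these libraries, so the medians are descriptions.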

How the data were processed

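Poly(A) RNA became cDNA in a SMART-seq v4 reaction for small inputs, then Nextera XT libraries read in pairs, per the labels' protocols. The kit does not mark strand, so genes that overlap on opposite strands cannot be told apart. The deposited count table holds raw whole numbers for each Ensembl ID, and the authors' second table holds RPKM values of the same genes. Per the submitters' processing notes, the build galGal4, bedtools, edgeR 3.12.0, FastQC 0.10.1 and TopHat2 2.0.13 were used; roles, multi-mapped reads, mates and strand handling are not given in the sources used here. For 5454 genes above an RPKM of 5, counts over RPKM scaled between libraries as TMM-adjusted totals do.

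The main test was edgeR 4.0.16 under R 4.3.3 (TMM, filterByExpr with a minimum count of 10, quasi-likelihood, 2-sided, no replicate block, Benjamini-Hochberg over all genes tested). Fold changes are 10 over 1 µg/ml. SEs are the size of edgeR's unshrunk log2 fold change divided by the square root of F. The intervals are centred on this unshrunk value. Printed fold changes are the shrunken ones that edgeR reports. Alternatives were DESeq2 1.42.0, limma 3.58.1 (voom, and log2(RPKM + 1) or log2(RPKM + 0.1) above an RPKM of 1 in 3 libraries), other scalings, filters and a replicate block. The code was tested on simulated counts. Replicate pairs differed beyond the counting noise of reads (chi-square per degree of freedom 67.9 to 148). Without molecular identifiers, this value cannot separate the sampling of molecules from differences between samples. The labels speak of biological replicates without naming separate embryos. The p-values thus set the dose difference against the spread between these samples, whatever their source. Named genes are the 2 with the smallest p each way, without overlap and with a mean of at least 1 CPM; the rule for symbols could not be used. The comparison and lists were chosen with earlier results of these data known. Of 25635 genes in the reference table (GRCg7b), 0 matched, so 9 pathway lists and 7 marker lists were not tested.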

Additional observations from a re-analysis of the deposited data

How the results depend on the processing

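The count of 0 calls was the same under 18 of 20 alternatives. It was 1123 with DESeq2, where the cause was not tested, and 0 to 55 with each library left out, the 55 coming without replicate 2 at 10 µg/ml. The 1390 genes higher and 1439 lower at an unadjusted p under 0.05 became 781 and 2159 with library size alone, where all genes had a median log2 fold change of -0.11, against -0.01, and the share of lower genes 73.4%, against 50.9%. They became 686 and 919 with all 8 libraries in the fit, where the cause was not tested. Leaving out each library gave 836 to 1470 higher and 923 to 1606 lower, the fewest without replicate 1 at 10 µg/ml. With a replicate block, 0 genes were called (smallest adjusted p 0.123), and 1299 were higher and 1382 lower before adjustment. Deviations of same-numbered libraries correlated at 0.12, 0.21 and 0.05. Replicates 1 and 2 at 10 µg/ml correlated best with their own number at 1 µg/ml. Replicate 3 at 10 µg/ml did not, with 0.08 for replicate 1 at 1 µg/ml. Whether same-numbered libraries share more than a number was not tested. The common dispersion at 10 µg/ml, 0.0666, ran from 0.0428 to 0.0854 with libraries left out. At 1 µg/ml it was 0.0735, with 0.0682 to 0.0750 left out, 0.0886 with no count filter and 0.0455 with the stricter one. At 10 µg/ml it was 0.0736 with no count filter and 0.0468 with the stricter one. The cause was not tested. Adjusted deviances, the robust fit, the ranking by untreated libraries and the counts by decile under each alternative were chosen after seeing the data. In the least abundant decile the interval's median half-width was a factor of 2.61, and the part of depth in it was not tested.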
